A study of Homo sapiens with 12 samples.

Results

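Actins are the proteins that assemble into the thin filaments of muscle and into the cytoskeleton of every cell, and the human genome encodes 6 isoforms of conventional actin. They were taken here by gene symbol, as ACTA1, ACTA2, ACTB, ACTC1, ACTG1 and ACTG2, and all 6 were found among the 78894 genes of the deposited count table. ACTC1 (cardiac alpha-actin) and ACTA1 (skeletal alpha-actin) form the thin filaments of striated muscle. ACTA2 (vascular smooth muscle alpha-actin) and ACTG2 (enteric smooth muscle gamma-actin) serve smooth muscle contraction, and ACTB (beta-actin) and ACTG1 (cytoplasmic gamma-actin) build the cortex and stress fibres of muscle and non-muscle cells alike.

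Cardiomyocytes had been made from WTC-mEGFP-ACTN2-cl85, a clonal human line of induced pluripotent stem cells that is an established cell line, and enriched in lactate medium. Their mRNA was counted at its 3′ ends in 12 libraries. All 4 groups, the vehicle group included, carried a heterozygous green fluorescent tag at the C-terminus of ACTN2, the gene of the actin-crosslinking protein alpha-actinin. For 48 h the cells received vehicle (DMSO), 10 nM endothelin-1 (a vasoconstrictor peptide and hypertrophic stimulus), 16 µM sacubitrilat (which inhibits neprilysin, a peptidase of the cell surface) or both compounds, with 3 separate cultures per group. Because the libraries count 3′ ends, a count does not grow with transcript length, and levels are given as CPM, which scales each library's counts to the same total.

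Library totals differed by group. Single-compound libraries (6) were deep, at 1268308 to 1953122 counts, whereas the vehicle and combined ones (6) were shallow, at 80844 to 316932, and the mean totals lay 10.1-fold apart. Group and library total therefore cannot be told apart in the comparisons that set a single compound against vehicle or against both. Endothelin-1 against sacubitrilat (mean totals 1.09-fold apart) and both compounds against vehicle (1.49-fold apart) were nearer in mean total. In the latter, single libraries still ranged from 80844 to 316932 counts with vehicle and from 87281 to 158791 with both. Groups follow the titles. In each deep library's description, a further line names the compound that the title does not, and if that line were right the endothelin-1 and sacubitrilat values below would change places.

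In differentiating and growing cardiomyocytes, the alpha-actin genes are among the best known targets of serum response factor (SRF), which binds the CArG box, a CC and a GG that enclose a run of 6 A or T bases. SRF acts with myocardin or with the myocardin-related factors MRTFA and MRTFB, and monomeric actin binds the MRTFs and holds them in the cytoplasm. The embryonic heart expresses ACTA2 and ACTA1 beside ACTC1, and ACTA1 is used as a marker of hypertrophic growth.

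Promoter sequence from RefSeq (GRCh38.p14) was at hand for 5 of the 6 actins, as 8 entries that differ in their start. ACTB had no entry. The 150 bases before the start are printed 5′ to 3′ on the gene's own strand for the entry of each gene that held a CArG box or a near match, because these genes include those whose counts moved most. Capitals mark each CArG box and each near match with 1 G or C in the run. The windows are chr15:34795550-34795699 on the minus strand, chr1:229434095-229434244 on the minus strand, chr10:88952774-88952923 on the minus strand (the second of 2 starts), chr2:73892858-73893007 on the plus strand and chr17:81512800-81512949 on the minus strand.
ACTC1: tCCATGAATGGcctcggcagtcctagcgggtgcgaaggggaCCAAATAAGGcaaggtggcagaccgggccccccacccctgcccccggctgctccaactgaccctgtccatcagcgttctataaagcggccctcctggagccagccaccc
ACTA1: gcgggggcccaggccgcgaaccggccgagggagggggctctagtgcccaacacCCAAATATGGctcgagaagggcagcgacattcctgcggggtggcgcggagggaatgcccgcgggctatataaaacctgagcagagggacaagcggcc
ACTA2: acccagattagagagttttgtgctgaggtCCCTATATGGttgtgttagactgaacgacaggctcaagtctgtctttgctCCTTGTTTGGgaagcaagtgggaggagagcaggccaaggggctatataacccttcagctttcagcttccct
ACTG2: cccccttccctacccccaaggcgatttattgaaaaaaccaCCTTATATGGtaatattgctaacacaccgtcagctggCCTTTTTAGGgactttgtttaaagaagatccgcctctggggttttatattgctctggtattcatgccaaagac
ACTG1: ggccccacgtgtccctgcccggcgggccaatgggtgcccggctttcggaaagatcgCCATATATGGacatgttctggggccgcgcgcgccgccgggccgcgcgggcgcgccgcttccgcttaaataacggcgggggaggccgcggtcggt

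An exact CArG box stood within 250 bases before the start in 4 of the 5 genes, against 1.44% of 27305 genes searched in the same way (1.16% of 35116 promoter entries). The pattern is its own reverse complement, so 1 search covers both strands. ACTC1 holds CCAAATAAGG at 109 to 100 bases before the start, ACTA1 holds CCAAATATGG at 97 to 88, and ACTG1 holds CCATATATGG at 94 to 85. ACTG2 holds a pair, CCTTATATGG at 110 to 101 and CCTTTTTAGG at 73 to 64. ACTA2 holds no exact box and 2 near matches, CCCTATATGG at 121 to 112 and CCTTGTTTGG at 71 to 62, a class found in 7.30% of genes. A TATAAA hexamer, searched on both strands, stood in ACTC1, ACTA1 and ACTG2 (13.05% of genes), 31 to 25 bases before the start. CATTCC, the core of TEAD factor sites, was found on either strand in an entry of ACTA1, ACTA2 and ACTC1 (14.3% of genes). Only the ACTA1 matches lie in the bases printed above. The ACTA2 match stood at 183 to 178 bases before the start, and the ACTC1 match at 174 to 169 before another start than the one printed. ACTC1 and ACTA1 hold further near matches. The matches describe the letters in these windows and say nothing of binding.

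ACTC1 (ENSG00000159251, chromosome 15, 34788095 to 34795726, minus strand, GRCh38) was the actin with the most counts in both single-compound groups. It stood at 2360, 247 and 1559 CPM in vehicle replicates 1 to 3, from 748, 20 and 266 counts. With endothelin-1 it stood at 5173, 4708 and 5180.0 CPM, and with sacubitrilat at 5744, 5031 and 6089 CPM. With both compounds it stood at 309, 775 and 630 CPM, from 27, 123 and 85 counts. Every single-compound library was above every vehicle and combined library, the 2 single-compound groups overlapped, and the vehicle libraries spanned a 9.54-fold range that enclosed the combined group.

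ACTA1 (ENSG00000143632, chromosome 1, 229431245 to 229434098, minus strand) was far lower. Vehicle libraries held 136, 37.1 and 111 CPM (43, 3 and 19 counts), endothelin-1 libraries 149, 159 and 169 CPM, and sacubitrilat libraries 234, 249 and 287 CPM. Libraries given both held 11.5, 113 and 59.3 CPM, from 1, 18 and 8 counts, so their spread was as wide as their mean (61.4 ± 51.0, SD, n = 3). The 2 single-compound groups did not overlap, with sacubitrilat the higher.

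ACTA2 (ENSG00000107796, chromosome 10, 88935074 to 88991339, minus strand) separated endothelin-1 from every other group. Endothelin-1 libraries held 993, 1010.3 and 1007 CPM (1770, 1489 and 1732 counts), and sacubitrilat libraries 535, 517 and 502 CPM. Vehicle libraries held 306, 86.6 and 223 CPM (97, 7 and 38 counts), and combined libraries 160.4, 167 and 215 CPM (14, 26.5 and 29 counts). The lowest endothelin-1 library was above the highest of the other 9, while the vehicle and combined groups overlapped. ACTG2 (ENSG00000163017, chromosome 2, 73892314 to 73919865, plus strand), the other smooth muscle isoform, had the lowest mean CPM of the 6 in all 4 groups. Vehicle libraries averaged 45.7 ± 7.94 CPM, those with endothelin-1 49.9 ± 7.41, those with sacubitrilat 39.4 ± 5.95 and the combined ones 37.1 ± 25.1 (SD, n = 3 each), from 2 to 15 counts in each vehicle and combined library. No pair of groups was separate in ACTG2.

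ACTB (ENSG00000075624, chromosome 7, 5527147 to 5563784, minus strand) was at 2259, 1749 and 2432 CPM in the vehicle libraries and at 2727, 2789 and 2793 under endothelin-1. Sacubitrilat libraries held 3338, 3231 and 3392 CPM of it, and combined libraries 1054, 1733 and 1743. Its 4 groups did not overlap, in the rising order both, vehicle, endothelin-1, sacubitrilat, although the highest combined library lay only just below the lowest vehicle library. ACTG1 (ENSG00000184009, chromosome 17, 81509971 to 81523847, minus strand) was at 393, 728 and 487 CPM in the vehicle libraries and at 525, 581 and 560.2 under endothelin-1. Sacubitrilat libraries held 784, 693 and 951 CPM of it, and combined libraries 214, 335 and 390.3. The combined group was below the other 3, by a narrow margin to vehicle, and the vehicle group overlapped both single-compound groups. ACTG1 was the only one of the 6 whose highest vehicle value came from vehicle replicate 2, the library with the smallest total.

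**Figure D1:**
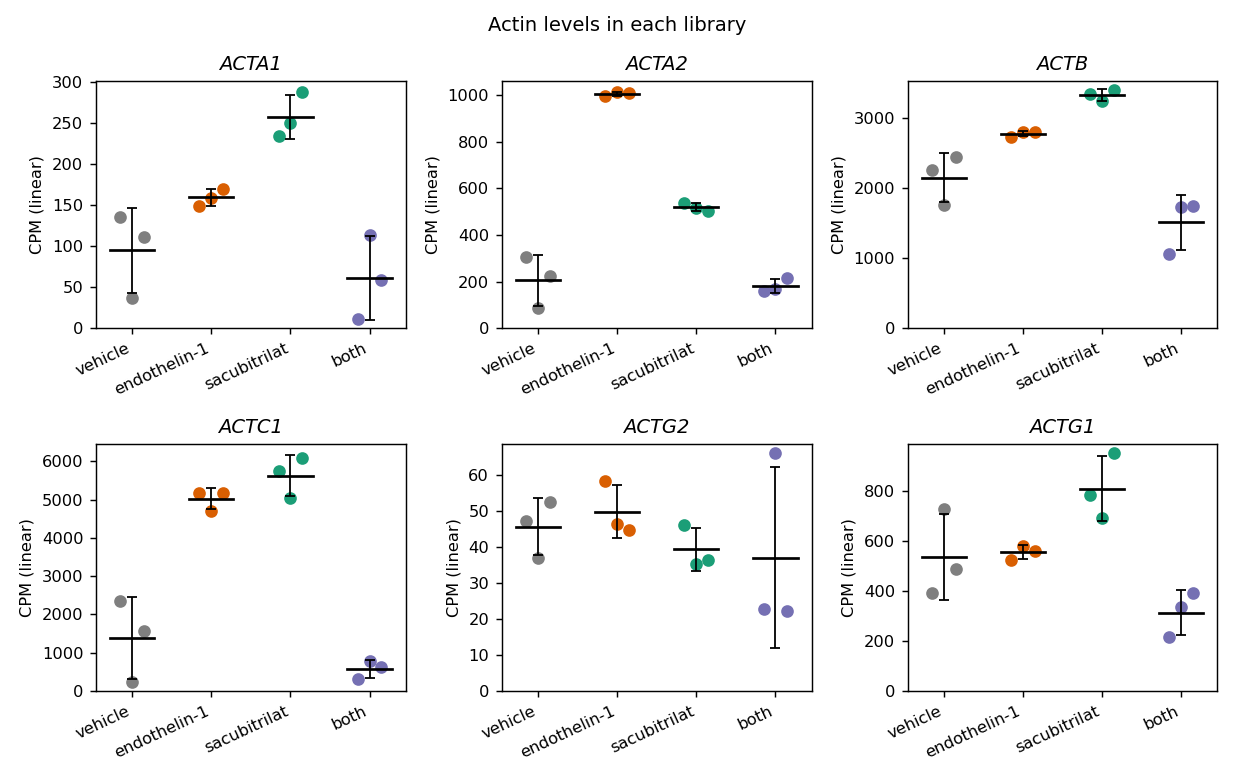
CPM (linear axes that start at 0) of each actin in each of the 12 libraries, as points, with the group mean as a bar and ± SD as whiskers (n = 3). ACTA2 stands at 993 to 1010.3 CPM with endothelin-1 against 502 to 535 with sacubitrilat, whereas ACTC1 overlaps between the single-compound groups.

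Vehicle against endothelin-1 is the first comparison the series names, and asks what the hypertrophic stimulus changed. ACTA2 and ACTC1 were higher with endothelin-1, and ACTA1, ACTB, ACTG1 and ACTG2 did not pass the test. The 2 actins called stand against 23.2% of 11203 genes tested, 11% higher and 12.2% lower (edgeR quasi-likelihood test, adjusted p under 0.05). ACTA2 rose by 2.12 ± 0.23 on the log2 scale (SE, 4.34-fold, edgeR adjusted p = 8.46e-09), and 1.49% of tested genes had a larger log2 fold change. ACTC1 rose by 1.80 ± 0.38 (3.48-fold, edgeR adjusted p = 5.81e-04). ACTA1 differed by 0.52 ± 0.25 (edgeR adjusted p = 0.137), ACTB by 0.43 ± 0.26 (0.235), ACTG1 by 0.23 ± 0.20 (0.433) and ACTG2 by 0.11 ± 0.32 (0.849). CPM did not overlap between the groups for 4 actins, against 43.1% of all genes. In the same libraries, summed fibroblast markers were at 8246 to 9155 CPM with endothelin-1 and 3117 to 6438 with vehicle, and summed endoderm and liver markers at 57.8 to 89.6 against 204 to 730 CPM. Their part in the actin differences was not tested, and in bulk RNA fewer cells of a type and less RNA per cell cannot be told apart. Without vehicle replicate 1, the fold changes were larger: 2.83 for ACTA2 and 2.64 for ACTC1, and ACTA1 passed at 1.19 (edgeR adjusted p = 0.0121). ACTA1 also passed with no filter on low counts (0.78, edgeR adjusted p = 0.0279).

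Endothelin-1 against both compounds, the second comparison the series names, asks what sacubitrilat changes under endothelin-1. All actins but ACTG2 were lower with both, 5 of 6, against 34.4% of genes called, 16.6% higher and 17.8% lower. ACTC1 fell by 3.12 ± 0.42 on the log2 scale (8.71-fold lower, edgeR adjusted p = 2.98e-07), and ACTA2 fell by 2.51 ± 0.26 (5.69-fold lower, 1.73e-09). ACTA1 fell by 1.21 ± 0.34 (edgeR adjusted p = 0.00583), ACTB by 0.90 ± 0.26 (0.00797) and ACTG1 by 0.81 ± 0.23 (0.00509). ACTG2 differed by -0.38 ± 0.40 (edgeR adjusted p = 0.482). The 5 were also separate in CPM, as were 52.5% of all genes. ACTC1 was among the genes with the lowest fold changes, with 2.23% of tested genes below it. Summed fibroblast markers ranged from 2486 to 5762 CPM with both and endoderm and liver markers from 482 to 584, outside the endothelin-1 ranges above in opposite directions, and their part was not tested. Without replicate 2 of the combined group ACTA1 was at -2.22 and ACTG2 at -1.39 (edgeR adjusted p = 0.0805), and with genes of at least 50 counts on average as the only ones fitted ACTA1 (-0.78, edgeR adjusted p = 0.0738) and ACTG1 (-0.39, 0.183) no longer passed.

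Sacubitrilat against vehicle gave 4 actins higher and 0 lower, against 19.9% of genes called, 8.68% higher and 11.2% lower. ACTC1 rose by 1.84 ± 0.38 on the log2 scale (edgeR adjusted p = 5.58e-04), ACTA1 by 1.10 ± 0.24 (9.39e-04), ACTA2 by 1.05 ± 0.24 (0.00130) and ACTG1 by 0.66 ± 0.20 (0.0160). ACTB differed by 0.58 ± 0.26 (edgeR adjusted p = 0.110) and ACTG2 by -0.37 ± 0.34 (0.468). The CPM of 4 actins did not overlap between the groups, against 44% of genes, and ACTG1 was not one of them. ACTG1 lost its call under 11 of 24 alternatives, the exchanged labels included, and held it under 13 of the 23 with labels kept. The losses included leaving out any 1 endothelin-1 library, vehicle replicate 3, or sacubitrilat replicate 1 or 3 (lowest of these 0.43, edgeR adjusted p = 0.171). The replicate block was another (0.63, edgeR adjusted p = 0.0579). Thinned to 80000 counts per library, ACTA1 was at 0.49 (edgeR adjusted p = 0.452) and ACTG1 at 0.21 (0.646). Without vehicle replicate 1, ACTC1 was at 2.69, ACTA1 at 1.77 and ACTA2 at 1.76, and ACTB passed at 0.87 (edgeR adjusted p = 0.0291). ACTB was also called with DESeq2 (0.59, adjusted p = 0.0110), with limma-voom (0.60, adjusted p = 0.0249) and with the 2 libraries under 100000 counts left out (0.38, edgeR adjusted p = 0.0109). Summed fibroblast markers were at 8409 to 8825 CPM with sacubitrilat and 3117 to 6438 with vehicle, with 2 of 11 higher and 0 lower, and endoderm and liver markers at 54.4 to 65.0 against 204 to 730, with 6 of 7 tested lower and 0 higher. Their part was not tested.

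Both compounds against sacubitrilat gave the same 5 actins lower as against endothelin-1, with 35% of genes called, 17.2% higher and 17.8% lower. ACTC1 fell by 3.17 ± 0.42 on the log2 scale (edgeR adjusted p = 2.36e-07), ACTA1 by 1.79 ± 0.32 (3.88e-05), ACTA2 by 1.44 ± 0.27 (8.46e-05), ACTG1 by 1.24 ± 0.22 (4.29e-05) and ACTB by 1.04 ± 0.27 (0.00233). ACTG2 differed by 0.09 ± 0.42 (edgeR adjusted p = 0.886). The 2 comparisons share the combined libraries, so they are not separate evidence. Non-overlap in CPM held for 5 actins and for 54.7% of genes. Without replicate 2 of the combined group, ACTA1 was at -2.80 and ACTG2 at -0.92 (edgeR adjusted p = 0.288).

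Both compounds against vehicle compared the 2 groups of low total, and 0 actins were called, against 0.179% of genes, 0.0803% higher and 0.0982% lower. All 6 estimates were below 0. ACTC1 was at -1.33 ± 0.42 on the log2 scale (edgeR adjusted p = 0.176, unadjusted p = 0.00281), ACTA1 at -0.68 ± 0.43 (adjusted 0.571), ACTG1 at -0.58 ± 0.25 (adjusted 0.364, unadjusted 0.0277), ACTB at -0.47 ± 0.27 (0.523), ACTA2 at -0.39 ± 0.33 (0.690) and ACTG2 at -0.27 ± 0.50 (0.896). ACTC1 and ACTG1 had an unadjusted p under 0.05. ACTB and ACTG1 were lower without overlap in CPM, against 12.8% of genes separate in either direction. The 95% interval, not adjusted over genes, ran from -1.05 to 0.27 for ACTA2 and from -2.17 to -0.48 for ACTC1. ACTC1 depended on single vehicle libraries: without vehicle replicate 2 it was called at -1.87 (edgeR adjusted p = 2.22e-05), and without vehicle replicate 1 it was at -0.72 (0.691). Over the libraries of the 2 groups, ACTC1 CPM ran in the order of library total. It went from 2360 CPM at 316932 counts (vehicle replicate 1) to 247 CPM at 80844 counts (vehicle replicate 2). The part of library total in this comparison was not tested. Without combined replicate 2, ACTA1 was at -1.63 (edgeR adjusted p = 0.308) and ACTG2 at -1.22 (0.515). DESeq2 and limma-voom also called 0 actins here.

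Endothelin-1 against sacubitrilat compared the 2 deep groups. ACTA2 was higher with endothelin-1 and ACTA1 was higher with sacubitrilat, while ACTC1, the most abundant of the 3 alpha-actins, did not pass in either direction. These 2 calls stand against 11.2% of genes, 6.44% higher and 4.78% lower with endothelin-1. ACTA2 was 2.10-fold higher with endothelin-1, by 1.07 ± 0.18 on the log2 scale (edgeR adjusted p = 3.81e-05), and 1.49% of tested genes had a larger log2 fold change. ACTA1 was at -0.58 ± 0.13 (edgeR adjusted p = 0.00151). ACTC1 was at -0.05 ± 0.36 (edgeR adjusted p = 0.963), with a 95% interval from -0.78 to 0.69, which does not show that the compounds act alike. ACTG2 was at 0.47 ± 0.16 (edgeR adjusted p = 0.0523), ACTG1 at -0.43 ± 0.17 (0.0977) and ACTB at -0.15 ± 0.25 (0.8004). CPM did not overlap for 4 actins, ACTA1, ACTA2, ACTB and ACTG1, against 35.8% of genes. ACTA1 lost its call with DESeq2 (adjusted p = 0.0577) and limma-voom (adjusted p = 0.229), and ACTG1 and ACTG2 were called when these 2 groups were fitted alone (edgeR adjusted p = 3.77e-05 and 0.0180), with the 2 libraries under 100000 counts left out (1.48e-04 and 0.0232), or without vehicle replicate 1, vehicle replicate 2 or combined replicate 1. ACTG2 was also called with RLE scaling (edgeR adjusted p = 0.0427), with mitochondrially encoded genes left out (0.0447), without endothelin-1 replicate 3 (0.0490) and without sacubitrilat replicate 1 (0.0350). Thinned to 80000 counts, ACTA2 was at 1.12 (edgeR adjusted p = 0.0533) and ACTA1 had the opposite sign, 0.34 (edgeR adjusted p = 0.890). Summed epicardial markers were at 151 to 163 CPM with endothelin-1 and 319 to 371 with sacubitrilat. Smooth muscle markers were at 6098 to 6429 against 4855 to 4931 CPM, with 5 of 11 higher and 0 lower with endothelin-1, and cardiomyocyte markers at 25330 to 26763 against 17765 to 18500, with 9 of 15 higher and 0 lower. The part of these 3 lists in the actin differences was not tested.

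**Figure D2:**
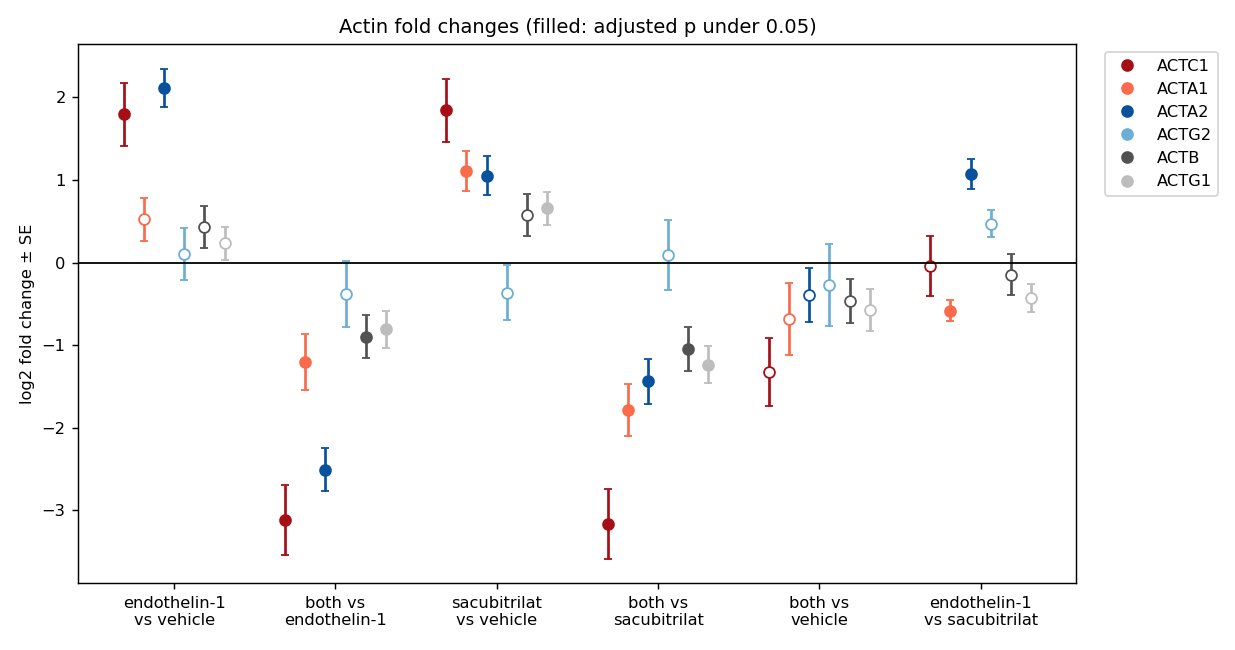
Log2 fold change (± SE, edgeR) of the 6 actins in 6 pairwise comparisons, with filled points where the adjusted p is under 0.05. Of the 6, 5 are filled and below 0 in both comparisons of the combined group with a single compound, and none is filled for both compounds against vehicle.

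The response to endothelin-1 was also compared between cells with and without sacubitrilat, as the interaction of the 2 compounds. It was called for 5 actins, all below 0, against 46.1% of genes called, 20.1% higher and 26% lower. The log2 interaction was -4.97 ± 0.57 for ACTC1, -3.56 ± 0.35 for ACTA2, -2.31 ± 0.41 for ACTA1, -1.47 ± 0.37 for ACTB and -1.47 ± 0.30 for ACTG1, and for ACTG2 it was -0.02 ± 0.53 (edgeR adjusted p = 0.985). Without vehicle replicate 1 it was -6.04 for ACTC1, -4.51 for ACTA2 and -3.22 for ACTA1, and without combined replicate 2 it was -3.39 for ACTA1 and -1.09 for ACTG2. This contrast sets both deep groups against both shallow groups, so interaction and library total cannot be told apart.

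The 6 actins together made up 0.550, 0.289 and 0.486% of vehicle library counts, 0.963, 0.929 and 0.975% with endothelin-1, 1.07, 0.976 and 1.13% with sacubitrilat, and 0.177, 0.319 and 0.306% with both. The makeup of that sum differed between groups. ACTC1 took 52.5 ± 1.62% of it with endothelin-1 and 53.1 ± 1.37% with sacubitrilat, against 20.8 ± 3.42% with both (SD, n = 3 each). In the vehicle libraries the ACTC1 share was 42.9, 8.57 and 32.0%. The exact 95% binomial intervals were 40.6 to 45.3, 5.32 to 12.9 and 28.9 to 35.3%, so these libraries differed by more than binomial counting error. The vehicle shares ran in the order of library total, and a difference between cultures cannot be told from one between libraries. ACTB took 50.6% on average with vehicle and 56.9% with both, but 28.99% with endothelin-1 and 31.5% with sacubitrilat. ACTB was therefore the leading actin by count in all combined libraries and in vehicle replicates 2 and 3, and ACTC1 in the other 7 libraries.

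The ACTA2 share set endothelin-1 apart. It was 10.5 ± 0.316% of actin counts with endothelin-1 and 4.92 ± 0.428% with sacubitrilat, 4.38% with vehicle and 7.10% with both. ACTA1 held 1.66, 2.43, 2.01 and 2.05% in the same order. ACTC1 counts were 29.7 to 34.6 times those of ACTA1 with endothelin-1 and 20.2 to 24.5 times with sacubitrilat, without overlap. ACTG1 held 5.81% with endothelin-1, 7.63% with sacubitrilat, 14.1% with vehicle and 11.8% with both, and ACTG2 between 0.374 and 1.36%. Over 6 pairs of groups and 6 shares, 22 of 36 did not overlap, 5 of 6 for endothelin-1 against sacubitrilat and 0 of 6 for both compounds against vehicle. Shares of 1 sum are not independent. The exact 2-sided permutation test over 3 against 3 libraries cannot go below p = 0.10, the value that each of the 22 had, so none reached 0.05. Share intervals were up to 16.0 percentage points wide in shallow libraries and up to 1.77 in deep ones, and cover counting error only.

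**Figure D3:**
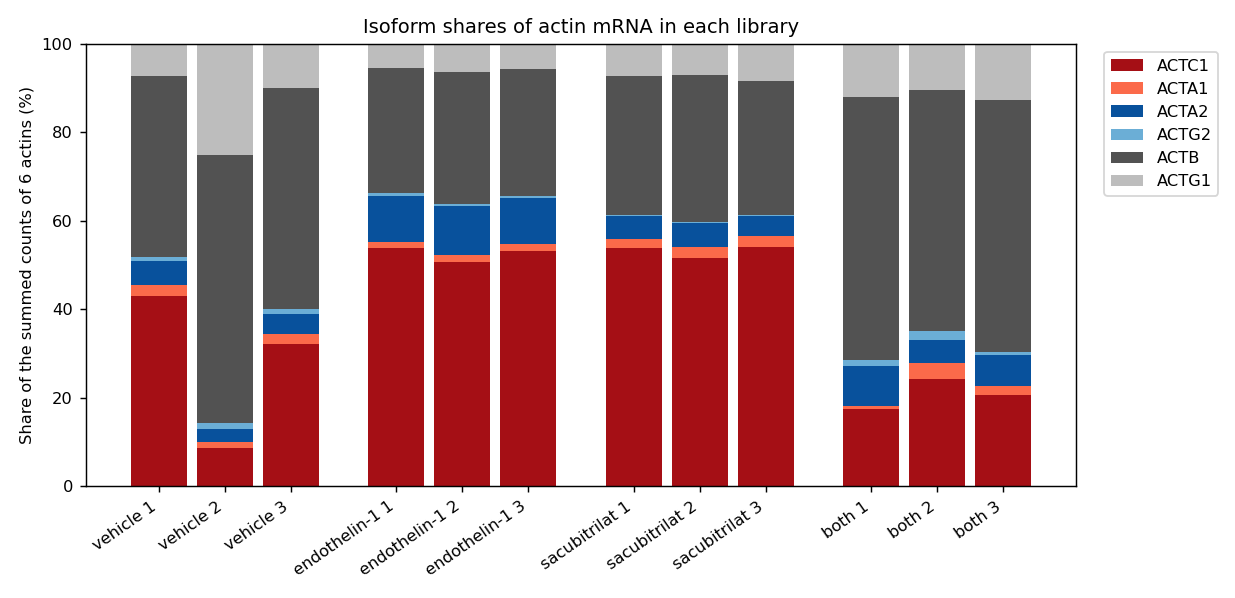
Share of each isoform (%) in the summed counts of the 6 actins, 1 stacked bar per library. ACTC1 fills 50.7 to 54.1% of every single-compound bar and 17.5 to 24.3% of the combined bars, and vehicle replicate 2 stands apart from the other vehicle libraries at 8.57%.

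The partners of actin were followed with 3 lists. Over all tested genes, 23.2% were called for endothelin-1 against vehicle, 34.4% for both against endothelin-1 and 11.2% for endothelin-1 against sacubitrilat, with median log2 fold changes of 0.10, -0.23 and -0.01, and each list's counts are to be read beside these. Of 25 tested genes of the SRF and MRTF pathway, 11 were higher and 1 lower with endothelin-1 than with vehicle (median log2 fold change 0.58), 3 higher and 14 lower with both than with endothelin-1 (-1.07), and 7 higher and 0 lower with endothelin-1 than with sacubitrilat (0.26). CCN2, which encodes a secreted matrix-associated protein, reached 459 ± 27.7 CPM under endothelin-1 and 246 ± 17.5 under sacubitrilat, against 78.5 ± 27.5 for vehicle and 22.1 ± 22.0 for both (SD, n = 3 each), and was listed at 0 in 1 combined library. FHL2, a LIM-domain protein of the sarcomere, was 1.41 ± 0.13 higher on the log2 scale with endothelin-1 than with sacubitrilat (edgeR adjusted p = 3.54e-10), CCN2 1.012 ± 0.12 (1.09e-07) and LMOD1, a nucleator of actin filaments in smooth muscle, 0.95 ± 0.15 (2.22e-05). The coactivator gene MRTFA ran against the list: it fell by 1.79 ± 0.25 from vehicle to endothelin-1 (edgeR adjusted p = 9.36e-07) and was 2.52 ± 0.24 higher with both than with endothelin-1 (2.74e-10). MRTFA CPM were 161, 643 and 240.3 with vehicle, 733, 378 and 296 with both, and 67.9 to 91.8 in the single-compound libraries. In the vehicle and in the combined group, the highest MRTFA value came from the library with the smallest total. The part of library total was not tested. The other 2 members higher with both were the myosin light chain MYL9 (1.17) and the filament crosslinker FLNA (0.64). CCN1, a secreted relative of CCN2, fell by 2.91 ± 0.52 from endothelin-1 to both, where each library was at or below the CPM of 3 counts.

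Of 28 tested genes that cap, sever, nucleate or sequester actin, 12 were higher and 1 lower with endothelin-1 than with vehicle (median log2 fold change 0.63, with 23.2% of all genes called), and 3 higher and 13 lower with both than with endothelin-1 (-0.92, with 34.4% called). CAP2, a cyclase-associated protein that recycles actin monomers in striated muscle, rose by 1.96 ± 0.25 on the log2 scale and then fell by 3.69 ± 0.39. TMOD1, which caps the pointed ends of sarcomeric thin filaments, rose by 1.76 ± 0.37 and fell by 3.39 ± 0.60, whereas TMOD3, the broadly expressed tropomodulin, fell by 2.29 ± 0.29 from vehicle to endothelin-1. Both falls of CAP2 and TMOD1 end near the floor. In combined replicates 1 to 3, CAP2 was at 11.5, 25.2 and 14.8 CPM and TMOD1 at 11.5, 12.6 and 0. In these libraries 3 counts are 34.4, 18.9 and 22.2 CPM. TMSB4X, the monomer-sequestering thymosin beta-4, fell by 2.34 ± 0.28 from endothelin-1 to both. Higher with both than with endothelin-1 were TMOD3 (1.17), the cyclase-associated protein CAP1 (0.84) and ARPC4, a subunit of the Arp2/3 nucleator (0.74). Between the single compounds, where 11.2% of all genes were called, 5 were higher and 2 lower with endothelin-1 (median log2 fold change 0.02), among them FHOD3, a formin of the sarcomere (0.67 ± 0.13, edgeR adjusted p = 4.29e-04), GSN, the severing protein gelsolin (0.57 ± 0.14, 0.00450), and TMOD3 (-0.81 ± 0.20, 0.00351). Not by the naming rule but to complete these counts, TMOD1 (0.52), the depolymerising factor DSTN (0.43) and CAP2 (0.37) were the other 3 higher, and the monomer-binding profilin PFN2 (-0.52) was the other lower.

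Newly made actin is folded by prefoldin and the CCT chaperonin. Of 15 tested genes of folding and maturation, 2 were higher and 0 lower with endothelin-1 than with vehicle: the prefoldin subunits PFDN2 (1.36 ± 0.29) and PFDN1 (0.99 ± 0.28). From endothelin-1 to both, 5 were lower and 0 higher, led by PFDN1 (-1.27 ± 0.35), PFDN2 (-0.99 ± 0.32) and the chaperonin subunit CCT6A (-0.86 ± 0.29). In the first comparison 11% of all genes were higher, and in the second 17.8% were lower. The list's counts stood above these shares of 1 direction, the first only just. Neither count stood above the share of all genes called in either direction, which was 23.2% and 34.4%. The list's median log2 fold change was 0.50, against 0.10 over all genes, and then -0.33, against -0.23. Against sacubitrilat, CCT2 was the only one called for endothelin-1 (-0.34 ± 0.11, edgeR adjusted p = 0.0349). In both compounds against vehicle, which called 20 genes in all and no actin, CCN1 of the SRF list fell by 2.72 on the log2 scale (edgeR adjusted p = 0.0469) and TMSB4X of the filament regulators by 1.62 (0.00642), and 0 folding genes were called. CCN1 was at 59.9, 210 and 76.2 CPM with vehicle, the highest in the library with the smallest total. With both it was at 11.5, 6.30 and 22.2 CPM, none above the CPM of 3 counts in its library.

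The labelled cell type was checked against its markers. Of 15 cardiomyocyte markers, 15 were counted in 11 libraries and 13 in vehicle replicate 2. Their summed CPM were 21534 to 26174 with vehicle, 25330 to 26763 with endothelin-1, 17765 to 18500 with sacubitrilat and 22312 to 46077 with both. Combined replicate 1 held the highest sum, with the atrial myosin light chain MYL4 alone at 20085 CPM, and combined replicate 3 the lowest of its group, below every endothelin-1 library. Members differed. With endothelin-1 against vehicle, 10 markers were higher and 1 lower (median log2 fold change of the 15, 1.20), where 11% of all genes were higher and 12.2% lower. The 1 lower was MYL4, at a mean of 2731 against 8700 CPM. With sacubitrilat against vehicle, 4 were higher and 3 lower (median 0.35), where 8.68% of all genes were higher and 11.2% lower. With both compounds against endothelin-1, 8 markers were lower and 4 higher (median -0.95), where 17.8% of all genes were lower and 16.6% higher. Summed smooth muscle markers (6 of the 11 also in the SRF list) were 5880 to 6831 CPM with vehicle, 6098 to 6429 with endothelin-1, 4855 to 4931 with sacubitrilat and 7510 to 9303 with both. MYL9 alone was at 5082 to 8009 CPM in the combined libraries and carried most of that sum. By gene, 6 of the 11 were higher and 0 lower with endothelin-1 than with vehicle, 5 higher and 0 lower with endothelin-1 than with sacubitrilat, and 1 higher and 6 lower with both than with endothelin-1. Fibroblast markers were all counted in each deep library (11 of 11) and 9 to 11 of them in shallow ones. With endothelin-1 against vehicle 5 fibroblast markers were higher and 1 lower, and 7 of 7 tested endoderm and liver markers were lower, where 11% of all genes were higher and 12.2% lower. Endothelial markers summed to at most 45.8 CPM and pluripotency markers to at most 22.9. The skeletal muscle factors MYOD1, MYOG, MYF5 and MYF6 were listed at 0 in all 12 libraries, as were TNNI2 and CHRNA1, while ACTA1 was counted in every library. Of the others on that list, the muscle creatine kinase CKM held 349.67 counts in all and the embryonic myosin heavy chain MYH3 27.33. CKM passed upwards for endothelin-1 against vehicle (1.30 on the log2 scale, edgeR adjusted p = 0.0147) and against sacubitrilat (1.22, 3.09e-06).

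**Figure D4:**
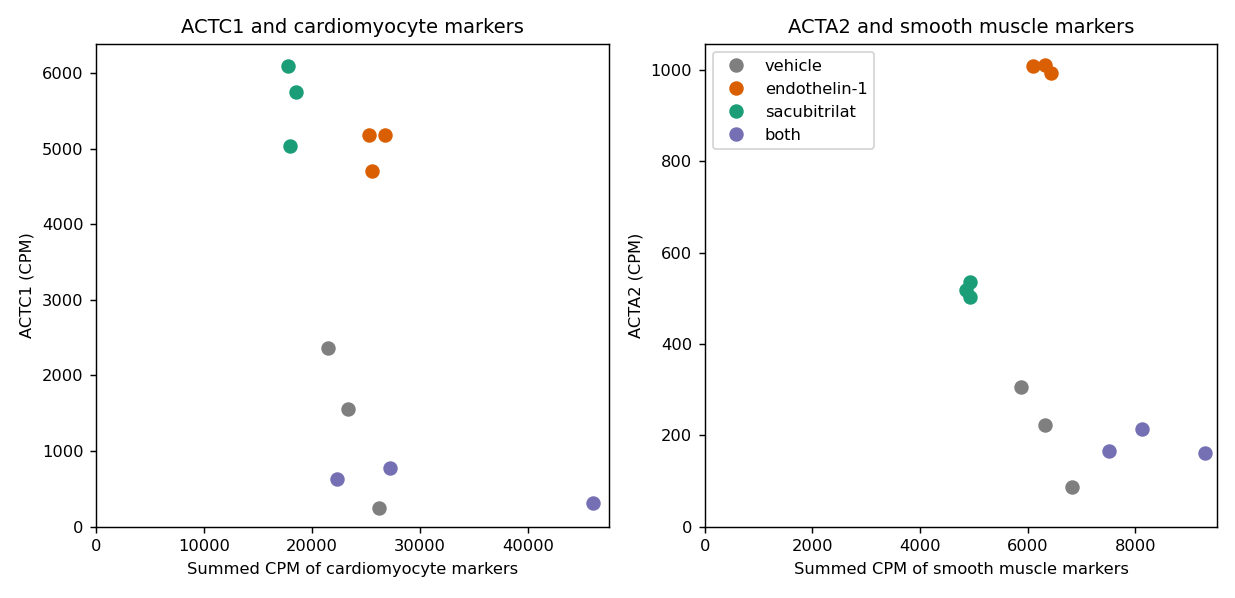
CPM of ACTC1 against the summed CPM of 15 cardiomyocyte markers, and of ACTA2 against that of 11 smooth muscle markers, 1 point per library (linear axes from 0). Combined libraries lie at 309 to 775 CPM of ACTC1 with marker sums of 22312 to 46077, and sacubitrilat libraries at 5031 to 6089 with 17765 to 18500. By gene, 5 of the 15 cardiomyocyte markers were higher and 5 lower with both than with sacubitrilat, where 17.2% of all genes were higher and 17.8% lower. MYL4 alone averaged 12550 CPM with both and 2060 with sacubitrilat.

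The genes whose log2 CPM followed each actin most closely over the 12 libraries, among 3199 genes with a mean of at least 50 CPM, were taken by Pearson r. These r describe 12 libraries that share 4 groups and unequal totals. For ACTC1 they were ID2 (r = 0.995) and SPARC (0.988). For ACTA2 they were CDKN1A (0.990), PFKP (0.980) and COL5A1 (0.977), and mean CDKN1A was 686 CPM with endothelin-1, 333 with sacubitrilat, 117 with vehicle and 95.3 with both. For ACTA1 they were IGF2 (0.983), IFITM2 (0.982) and SLIT2 (0.980), all highest with sacubitrilat. ACTB was followed by RHOA (0.989), CPNE1 (0.985) and BEX1 (0.983), and ACTG1 by CALM2 (0.959), RPN1 (0.956) and MAPRE1 (0.955). ACTG2 had no close match (REEP3, 0.826; OSBPL8, 0.817; METAP2, 0.801). Among the actins themselves, r was highest between ACTA1 and ACTB (0.949) and lowest between ACTG2 and ACTG1 (0.226), and ACTC1 had r = 0.910 with ACTA2 and 0.897 with ACTA1.

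Near-identical copies limit how surely actin reads are placed. Counts that were not whole, as arise when a read is divided among genes, were found in 11 of 12 libraries for ACTG1 and in 10 for ACTB, but in 1 each for ACTA1 and ACTC1, 2 for ACTA2 and 3 for ACTG2. The 23 entries with an ACTG1 pseudogene symbol, some annotated as lncRNA, held 54.66 counts in all against 6948 for ACTG1, and the 12 with an ACTB pseudogene symbol 44.99 against 30913 for ACTB. Per library, pseudogenes held 0.114 to 13.8% of the counts of ACTG1 and its pseudogenes together, and 0.0488 to 4.66% for ACTB. Both maxima were in replicate 1 of the combined group, where ACTG1 had 18.67 counts. With pseudogene counts added to ACTB and ACTG1, no actin fold change changed sign or gained or lost a call, and every share moved by less than 1 SD. The actin-related POTE genes held 122.81 counts, led by POTEI (41.67), POTEE (23.92) and POTEF (23), and ACTBL2 held 3. Of the entries with an ACTB or ACTG1 pseudogene symbol, only ACTBP2 (33 counts) and the lncRNA entry of ACTG1P17 (26) reached 20. The pseudogene entry of ACTG1P17 was listed at 0. ACTA2-AS1, which overlaps ACTA2 on the other strand, held 36 counts, of which 23 were in endothelin-1 libraries, against 4991 for ACTA2 there.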

How the data were processed

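Cardiomyocyte mRNA was measured in 12 libraries, 3 per group. Per the labels' protocols, RNA was primed with poly(dT) carrying a unique molecular identifier, and libraries were stranded, single-end and 3′-end counting. Per the submitters' processing notes, fastp 0.24.0 trimmed the reads and featureCounts made the counts, on GRCh38. Which aligner and annotation were used, and whether counting used the identifiers or the strand, is not given in the sources used here. Positions are from the GENCODE annotation of that build.

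The authors deposited estimated counts, not all of them whole, and CPM. Each deposited CPM equalled the count over the library's sum (largest difference 2.91e-11). Of 78986 features, 92 spike-in sequences were left out. By replicate, the vehicle libraries held 316932, 80844 and 170644 counts, the endothelin-1 libraries 1781653, 1473744 and 1719492, the sacubitrilat libraries 1361536, 1268308 and 1953122 and the combined libraries 87281, 158791 and 134950. The floor of 3 counts, like the intervals, covers counting error only.

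Counts were rounded, and edgeR 4.0.16 (R 4.3.3; TMM, filterByExpr, quasi-likelihood test) fitted the 12 libraries by group alone. The fit tested 11203 genes, Benjamini-Hochberg adjusted over all of them, with a threshold of 0.05. Shares were compared by exact 2-sided permutation and given exact (Clopper-Pearson) 95% intervals. Log2 CPM for the closest genes used a prior count of 2. Replicates are separate cultures per the series' design text.

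The 6 actins, the lists and the tests were chosen with earlier results of these data known. Named genes were the 6 actins, the 3 genes with the highest r for each (1 of those for ACTC1 is not reported here), the 3 called members with the largest change per list in the 2 comparisons named by the series and in endothelin-1 against sacubitrilat, and pseudogenes or actin-like genes with at least 20 counts. Other genes were named to complete counts, after their values were seen. The labels write the replicate number as the batch, and same-numbered libraries were checked for pairing: deviations from group means had r from -0.149 to 0.0467 over 18 pairs, none over 0.1, so no block was used. Other settings tried were DESeq2 1.42.0, limma-voom (limma 3.58.1), RLE scaling, the filter removed or raised to a mean of 50 counts, a replicate block, fits of the compared groups alone, thinning to 80000 counts, exchanged labels, and leaving out each library, the 2 libraries under 100000 counts, or mitochondrially encoded genes. A further setting added the pseudogene counts to ACTB and ACTG1. Scripts were tested on simulated data. Plots were made in Python 3.11.15 with matplotlib 3.10.9.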

Additional observations from a re-analysis of the deposited data

Results flagged for a closer look

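Under the same contrast, the response to endothelin-1 differed between cells with and without sacubitrilat in 5 actins, by the edgeR test of the interaction. The log2 difference was -4.97 for ACTC1, -3.56 for ACTA2, -2.31 for ACTA1, -1.47 for ACTB and -1.47 for ACTG1, with edgeR adjusted p of 4.80e-09, 1.72e-10, 2.15e-05, 0.00138 and 1.41e-04. The interaction contrast coincides with the split between libraries of high and low total, so that compounds and totals cannot be told apart. For ACTG1 the call was lost with thinning to 80000 counts (-0.99, edgeR adjusted p = 0.0569) and with a mean of at least 50 counts (-0.72, 0.0585).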

How the results depend on the processing

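Of 986 recomputed fold changes of single actins, 909 kept direction and side of the threshold, 25 gained a call, 20 lost one and 32 changed sign, and 130 of 144 shares moved by less than 1 SD. ACTC1 and ACTA2 kept their calls under all 24 alternatives for each single compound against vehicle and for both compounds against each. Moves of over 1.5 times in the number of actins called were these, and smaller moves are not listed. Both compounds against vehicle gave 1 (ACTC1) with no filter and with the 2 smallest libraries left out, and 0 to 1 with each library left out. Both against endothelin-1 gave 3 at a mean of at least 50 counts. Endothelin-1 against sacubitrilat gave 1 with DESeq2, 1 with limma-voom, 4 with the compared groups alone, 4 with the 2 smallest libraries left out, 0 with thinning, and 2 to 4 with each library left out. Sacubitrilat against vehicle gave 2 with thinning. With labels exchanged, endothelin-1 against vehicle gave 4 and sacubitrilat against vehicle 2.

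Signs changed mostly where the value was near 0. ACTG2 for both against sacubitrilat was -0.40 with no filter and -0.92 to 0.32 with each library left out. ACTG2 in the interaction was 0.24 with the 2 smallest libraries left out, 0.0823 with mitochondrially encoded genes left out and -1.09 to 0.31 with each library left out, and for endothelin-1 against vehicle the last range was -0.10 to 0.39. ACTG1 for endothelin-1 against vehicle was -0.10 at a mean of at least 50 counts. ACTA2 for both against vehicle was 0.10 with thinning and -0.75 to 0.0830 with each library left out. ACTC1 for endothelin-1 against sacubitrilat was -0.0992 to 0.0128 with each library left out. ACTA1 for that comparison was 0.34 with thinning (edgeR adjusted p = 0.890), and the cause was not tested. Exchanging the labels turns endothelin-1 against sacubitrilat by construction (ACTA1 0.58, ACTA2 -1.07, ACTC1 0.0468, ACTG2 -0.47, ACTB 0.15, ACTG1 0.43) and puts ACTG2 at -0.37 for endothelin-1 against vehicle, 0.0906 for both against endothelin-1, 0.11 for sacubitrilat against vehicle and -0.38 for both against sacubitrilat.

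The replicate block moved ACTG1 for sacubitrilat against vehicle to 0.63 (edgeR adjusted p = 0.0579) and changed no other actin call, and with it 10 genes in place of 20 were called for both against vehicle. Counts over all genes moved by over 1.5 times where fewer genes were tested: at a mean of at least 50 counts (2969 genes) 992 were called for endothelin-1 against vehicle and 1349 for both against endothelin-1, and after thinning (1830 genes) 458 and 800. For endothelin-1 against sacubitrilat 1257 became 758 with DESeq2, 472 with limma-voom, 2106 with these groups alone and 681 to 1672 with each library left out, and for both against vehicle 20 became 156 with DESeq2 and 6 to 221. ACTG2 gave no value under some of these filters. At 80844 counts, 3 counts are 37.1 CPM. In the shallow libraries this limits ACTG2 and ACTA1 among the actins, and other genes of low count such as CAP2, TMOD1 and CCN1.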
